A study of Mus musculus with 22 samples.

Results

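The genes described here are 10 proteases of the extracellular matrix and of the urokinase system, their inhibitors and 1 receptor, chosen by name: the matrix metalloproteinases *Mmp2*, *Mmp12*, *Mmp13*, *Mmp14* and *Mmp19*, the tissue inhibitors *Timp1*, *Timp2* and *Timp3*, the urokinase gene *Plau* and its receptor gene *Plaur*. They are 10 of the 31116 genes counted in both cell types, and were chosen with earlier results of these data known. Expression was measured by RNA sequencing in 22 samples of 2 sorted lung populations, Ly6Chi monocytes (CD11b+ Ly6C+) and SigF+ CD11b- alveolar macrophages. All mice were labelled C57BL/6 and SP-C I73T mutant, and per the study's methods they were 8 to 12 weeks old, homozygous and of both sexes, from a founder line crossed to a tamoxifen-dependent Flp-O recombinase at the Rosa26 locus. In mice with Flp-O, a single oral gavage of tamoxifen removes a neomycin cassette and raises mutant surfactant protein C, a protein made by alveolar type 2 epithelial cells rather than by the sorted cells. There were 4 control, 4 early (3 d after tamoxifen) and 4 late (14 d) monocyte samples, and 4 control, 3 early and 3 late macrophage samples. The labels call the controls untreated, the study describes the controls of the monocyte sequencing as oil-treated mutants, and its methods also count tamoxifen-treated mutants without Flp-O among control mice. Lungs were lavaged, perfused and digested with collagenase before sorting, and the labels do not say whether 1 sample is 1 mouse, so that all p-values measure the spread between these samples.

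Matrix metalloproteinases (MMPs) are zinc-dependent enzymes, made as inactive precursors, that cleave collagens, elastin and other matrix proteins outside the cell or at its surface. Tissue inhibitors of metalloproteinases (TIMPs) bind the active enzymes and block them, and some also take part in activation, as when TIMP2 bridges the membrane enzyme MMP14 to the precursor of MMP2. Urokinase, held at the cell surface by its receptor, converts plasminogen into plasmin, which degrades fibrin and can activate several MMP precursors. In the lung, macrophages and monocytes are known sources of the elastase MMP12 and of urokinase, while fibroblasts are known for MMP2, MMP14 and TIMPs.

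Promoter sequences are shown for 4 of these genes: *Mmp13*, *Mmp12* and *Plaur*, which have a match to the motif named below, and *Timp1*, which has none. In the data below *Mmp12*, *Mmp13* and *Timp1* were all called higher in monocytes at 3 d and 14 d. *Plaur* was called lower in monocytes at 3 d and in macrophages at 14 d. A part of the motif in these changes was not tested. RefSeq start sites on GRCm38.p6 were listed for 7 of the 10 genes, at 8 starts, *Mmp12* having 2. Each sequence holds the 120 bases before the start on the plus strand, 5′ to 3′, and capitals mark a match to the AP-1 motif TGANTCA, which Fos and Jun dimers bind. The search covered both strands, on which this motif reads the same.
Mmp13, chr9:7272394-7272513: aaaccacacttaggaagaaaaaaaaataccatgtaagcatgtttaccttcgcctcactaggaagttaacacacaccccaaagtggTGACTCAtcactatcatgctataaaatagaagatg
Mmp12, chr9:7347254-7347373: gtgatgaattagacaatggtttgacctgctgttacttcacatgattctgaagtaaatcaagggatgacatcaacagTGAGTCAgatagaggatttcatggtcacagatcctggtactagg
Plaur, chr7:24462363-24462482: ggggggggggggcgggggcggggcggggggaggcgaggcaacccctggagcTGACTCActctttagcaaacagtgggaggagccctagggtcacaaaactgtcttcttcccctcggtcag
Timp1, chrX:20870046-20870165: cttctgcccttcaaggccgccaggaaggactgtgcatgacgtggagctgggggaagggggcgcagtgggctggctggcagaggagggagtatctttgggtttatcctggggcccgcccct
The *Mmp12* sequence belongs to its downstream start. Within 250 bases before the start, these letters were found at 3 of the 8 starts, those of *Mmp13*, *Mmp12* and *Plaur*, against 6.75% of all 32851 RefSeq starts. The match began 35 bases before the start in *Mmp13*, 44 before it in *Mmp12* and 69 before it in *Plaur*. Its absence in *Timp1* says only that these letters are not in the window.

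Library totals were 15451460 to 28789639 counts in monocytes, 10692871 to 17074863 counts in control and 3 d macrophages and 4610720 to 6838893 counts in 14 d macrophages. In the last group 3 counts correspond to 0.439 to 0.651 counts-per-million (CPM) of the library total, before the scaling applied to the CPM values below. The 3 d monocyte libraries stood apart, with 40119 to 41134 genes detected against 24775 to 32492 in the other monocyte libraries. Counts of Y-linked genes summed to 433 or more in every 14 d library of both cell types and to 3 or fewer in every control and 3 d library, so that sex and the 14 d time cannot be told apart. *Timp1* is on the X chromosome. The sorted types carried their defining markers: *Ly6c2* lay at 2570 to 3281 CPM in control monocytes and at 1.51 to 3.34 CPM in control macrophages, and *Siglecf* at 231 to 348 CPM in control macrophages and at 3.55 to 29.2 CPM in control monocytes. *Itgam*, which encodes the CD11b that the macrophage gate excluded, lay at 0.730 to 2.66 CPM in control, 3.65 to 18.3 CPM in 3 d and 54.9 to 102 CPM in 14 d macrophages. The 2 populations are in 2 count tables that list different numbers of genes, so a difference between cell types and one between separate processing runs cannot be told apart.

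Levels were first compared between genes as CPM per kilobase of exon, with 1 scaling over all 22 samples. In control monocytes *Plaur* stood far above the other genes, at 406 ± 68.0 (SD, n = 4). It was followed by *Mmp19* at 7.69 ± 2.03 and *Timp2* at 3.44 ± 1.36, and these 3 ranges did not overlap. The remaining genes, from *Timp1* at 0.965 ± 0.893 down to *Mmp13* at 0.162 ± 0.121, each overlapped with the next. In control macrophages the order was *Plaur* (161 ± 22.7), *Mmp19* (76.1 ± 39.0), *Timp2* (26.0 ± 4.07) and *Plau* (8.64 ± 0.972), with no overlap between neighbours among these 4. *Plau* and *Mmp12* (5.87 ± 5.70) overlapped, as did every lower pair of neighbours, and the lowest gene was *Timp3* at 0.101 ± 0.0513. At 14 d in monocytes *Timp1* held second place per kilobase, at 158 ± 49.98 against 313 ± 63.0 for *Plaur* (SD, n = 4 each). In macrophages at 14 d *Plaur* (50.7 ± 6.81) and *Mmp19* (45.6 ± 5.23) overlapped (SD, n = 3 each). *Mmp2* and *Timp3* were low throughout, with highest group means of 0.4926 and 0.437 CPM per kilobase, both in 14 d macrophages.

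**Figure D1:**
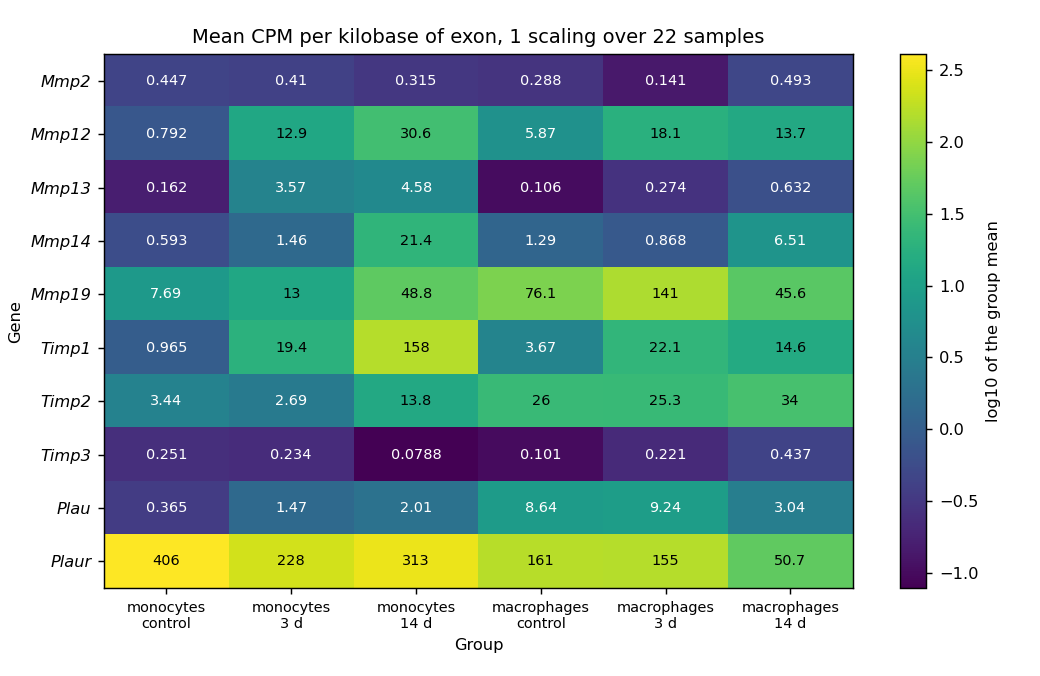
Heat map of the group mean of each gene (rows) in the 6 groups (columns) as CPM per kilobase of exon with 1 scaling over 22 samples. Colour is the log10 of the mean and the mean is printed in each cell. *Plaur* is highest in every group, *Timp1* rises from 0.965 to 158 across the monocyte groups, and *Mmp19* is highest in 3 d macrophages at 141.

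The comparison of 3 d and 14 d with control asks which of these genes had changed in each population at an early and a late time after induction of the mutant. Values from here on are CPM scaled within a cell type unless stated, fold changes are log2 values from edgeR with their standard errors (SE), and q is the edgeR p after Benjamini-Hochberg adjustment over every tested gene. Calls required q below 0.05 and a fold change above 1.5. In a sorted bulk sample, fewer cells of a kind and less RNA per cell cannot be told apart.

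In monocytes, 7 of the 10 genes were called at 14 d against control, all of them higher: *Mmp12*, *Mmp13*, *Mmp14*, *Mmp19*, *Timp1*, *Timp2* and *Plau*. Of all 22353 genes tested, 8.56% were called in this comparison and 3.22% were called higher. The median log2 fold change of the 10 genes was 2.51, beside 0.09 over all genes. The 10 genes were chosen with earlier results of these data known, so this excess over all genes is no independent result. For 6 of the 7, every 14 d sample lay above every control sample, a pattern seen in 5.75% of all genes, while 5.34% of all genes were called lower. At 3 d, 5 genes were called, *Mmp12*, *Mmp13*, *Timp1* and *Plau* higher and *Plaur* lower, beside 51.2% of all genes called, 36.8% higher and 14.4% lower. Those 3 d counts lie near that background. None of the 10 genes lay above control in every 3 d sample, beside 36.6% of all genes, and *Plaur* lay below, beside 14.5%.

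**Figure D2:**
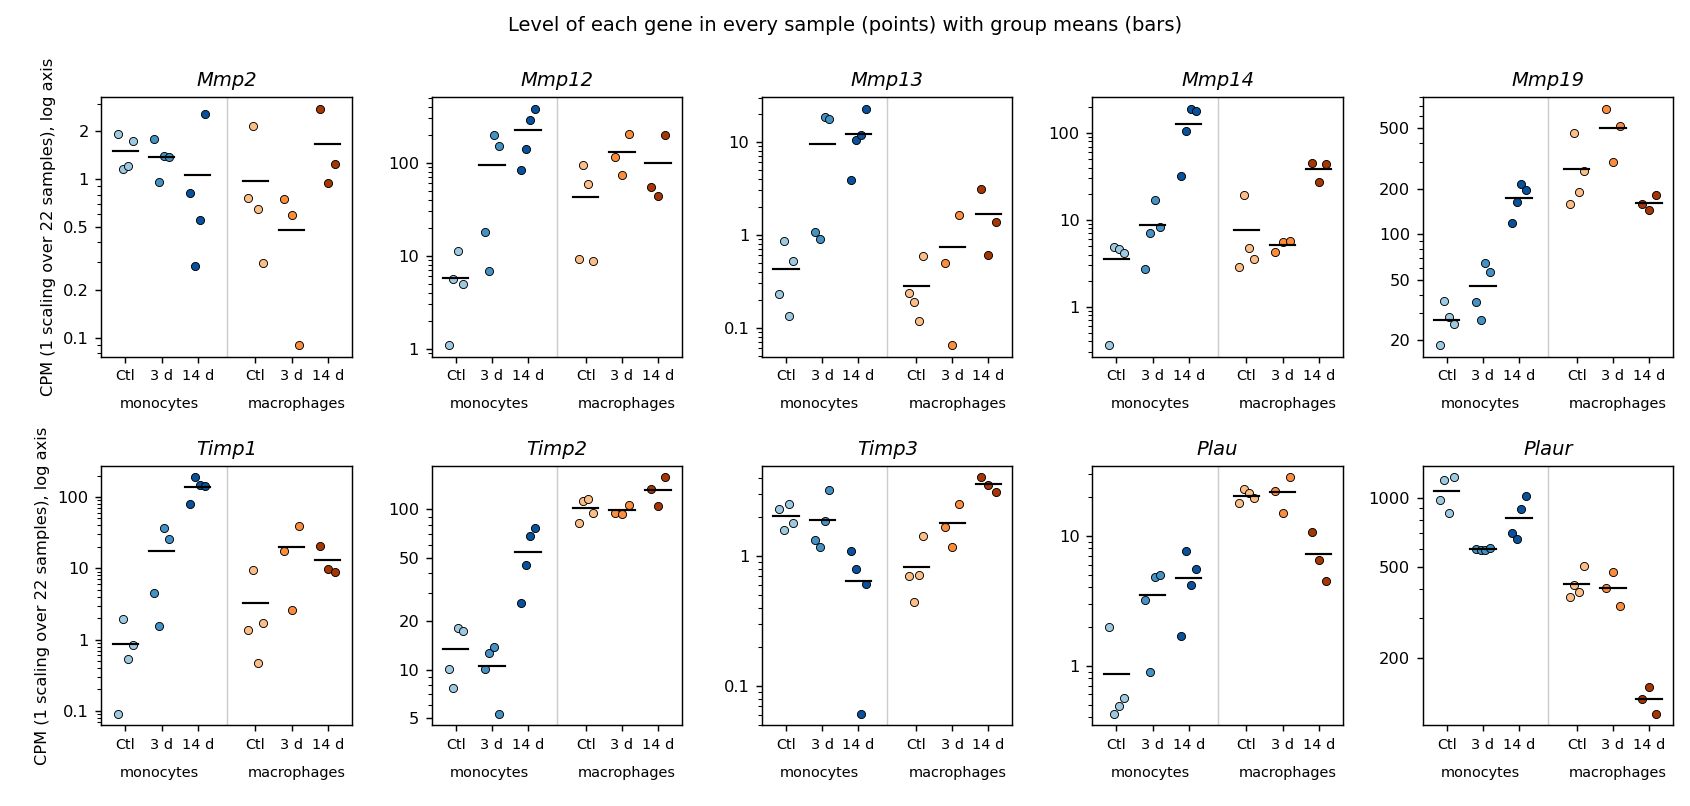
CPM of each gene in every sample (points) with the group mean (bar), on a log axis with 1 scaling over the 22 samples. Columns are control (Ctl), 3 d and 14 d in monocytes (blue) and macrophages (orange). In monocytes the 14 d points of *Mmp14*, *Mmp19*, *Timp1* and *Timp2* sit above all control and 3 d points, and in macrophages the 14 d points of *Plau* and *Plaur* sit below all others.

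*Mmp12* (chromosome 9, 7344381 to 7369499) encodes macrophage elastase, which degrades elastin. It had 0.994, 4.95, 10.1 and 4.31 CPM in the 4 control monocyte samples, 14.2, 5.48, 159.9 and 119 CPM at 3 d and 70.3, 119.9, 245 and 328 CPM at 14 d. All 14 d samples lay above all controls, while the 3 d samples split, replicates 3 and 4 reaching the 14 d range and replicates 1 and 2 staying near control. The change against control was 3.87 at 3 d (SE 1.08, q = 0.0119) and 5.23 at 14 d (SE 1.15, q = 0.0159), and 14 d did not pass against 3 d (1.36, SE 0.97, q = 0.253).

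*Mmp13* (chromosome 9, 7272514 to 7283331) encodes collagenase 3, which cleaves fibrillar collagen. Its control values were 0.207, 0.753, 0.121 and 0.448 CPM, those at 3 d 0.853, 0.718, 15.1 and 13.8 CPM, and those at 14 d 3.29, 9.02, 10.2 and 19.6 CPM. The same 2 libraries were high at 3 d as for *Mmp12*, and at 14 d no sample overlapped with control. Against control *Mmp13* changed by 4.34 at 3 d (SE 1.08, q = 0.006) and by 4.81 at 14 d (SE 1.09, q = 0.0156), with control counts of only 3 to 14 reads.

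*Mmp14* (chromosome 14, 54431612 to 54445364) encodes membrane type 1 metalloproteinase, a cell surface collagenase. In controls it had 0.331, 4.36, 4.18 and 3.62 CPM, at 3 d 2.15, 5.61, 13.5 and 6.45 CPM, and at 14 d 27.2, 92.5, 165 and 154 CPM. Unlike *Mmp12* and *Mmp13* it was not called at 3 d (1.15, SE 0.74, q = 0.205). Between 3 d and 14 d it rose by 3.99 (SE 0.79, q = 0.00297), with no overlap between these groups, and it reached 5.14 above control (SE 0.84, q = 0.00229).

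*Mmp19* (chromosome 10, 128790910 to 128800824) encodes an enzyme that cleaves basement membrane proteins. Control samples held 16.9, 31.8, 25.5 and 22.1 CPM, 3 d samples 28.1, 21.7, 51.9 and 44.2 CPM, and 14 d samples 100.3, 141, 185 and 167 CPM. The 14 d samples were above both other groups without overlap, by 2.62 against control (SE 0.29, q = 7.08e-05) and by 2.02 against 3 d (SE 0.29, q = 0.000586). At 3 d the change was 0.60 (SE 0.28, q = 0.0786). *Mmp19* shares 789 exonic bases with *Tmem198b* and 212 with *Gm47093*, and *Mmp12* shares 157 with *Mmp1b*, all on the other strand, and whether counting used strand is not given in the sources used here.

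*Mmp2* (chromosome 8, 92827291 to 92853420), the gene of gelatinase A, stayed low in monocytes. It ranged from 1.02 to 1.74 CPM in controls, from 0.763 to 1.42 CPM at 3 d and from 0.247 to 2.22 CPM at 14 d. These ranges overlap, and neither time passed against control (-0.28, SE 0.57, q = 0.691 at 3 d, and -0.54, SE 0.57, q = 0.631 at 14 d).

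Among the inhibitors, *Timp1* (chromosome X, 20870166 to 20874735), a secreted inhibitor that blocks membrane-type MMPs poorly, had the largest change of the 10 genes. Control monocytes had 0.0829, 1.72, 0.482 and 0.732 CPM, 3 d monocytes 3.58, 1.26, 29.7 and 20.5 CPM, and 14 d monocytes 68.2, 163, 128 and 123 CPM. The 3 d values again split between replicates 1 and 2 and the higher replicates 3 and 4, and the lowest 14 d sample was above the highest 3 d sample. Against control *Timp1* changed by 4.23 at 3 d (SE 1.00, q = 0.00529) and by 7.37 at 14 d (SE 1.10, q = 0.00159), and between 3 d and 14 d by 3.14 (SE 0.87, q = 0.0136).

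*Timp2* (chromosome 11, 118301069 to 118355740), the inhibitor that also helps to activate MMP2, showed 9.16, 6.78, 16.4 and 15.1 CPM in controls, 7.96, 10.1, 11.2 and 4.19 CPM at 3 d and 21.9, 39.1, 58.7 and 65.6 CPM at 14 d. Control and 3 d samples overlapped (-0.51, SE 0.38, q = 0.262). The 14 d samples were above both, by 1.96 against control (SE 0.38, q = 0.00443) and 2.47 against 3 d (SE 0.39, q = 0.000928).

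*Timp3* (chromosome 10, 86300372 to 86349506), a matrix-bound inhibitor that also acts on ADAM and ADAMTS proteases, went the other way without passing. It had 2.07, 1.4, 2.25 and 1.55 CPM in controls, 1.06, 0.943, 1.505 and 2.54 CPM at 3 d and 0.928, 0.690, 0.0532 and 0.524 CPM at 14 d. Every 14 d sample was below every control sample, a pattern in 7.97% of all genes, and the change was -1.71 (SE 0.59, q = 0.0914), which DESeq2 called (q = 0.0231, alternatives 0.0231 to 0.138). The 14 d counts were 1 to 20 reads, and *Timp3* shares 1733 exonic bases with the opposite gene *Syn3*, which makes these few counts uncertain.

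The urokinase gene *Plau* (chromosome 14, 20836660 to 20843385) was low in monocytes, at 1.78, 0.377, 0.442 and 0.488 CPM in controls, 2.52, 0.718, 3.87 and 3.95 CPM at 3 d and 1.44, 6.56, 3.62 and 4.76 CPM at 14 d. Control replicate 1 lay inside the range of both later groups. *Plau* was called at 3 d (1.82, SE 0.63, q = 0.0253) and at 14 d (2.39, SE 0.64, q = 0.0308).

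Its receptor gene *Plaur* (chromosome 7, 24462484 to 24475968), which encodes a protein anchored at the cell surface, was the most abundant of the 10 genes and the one called lower at 3 d. Control monocytes had 880.1, 1058, 771 and 1058 CPM, 3 d monocytes 469.7, 473, 479 and 475 CPM, and 14 d monocytes 594, 573, 773 and 871 CPM. The 3 d samples were tightly grouped below every control and every 14 d sample. *Plaur* changed by -0.99 at 3 d (SE 0.15, q = 0.000586) and by -0.42 at 14 d (SE 0.15, q = 0.108), and from 3 d to 14 d by 0.57 (SE 0.15, q = 0.00886), a fold change of 1.48 that is under the threshold.

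Between 3 d and 14 d, 4 of the 10 genes were called, *Mmp14*, *Mmp19*, *Timp1* and *Timp2*, all higher, beside 46.5% of all genes called, 12% higher and 34.5% lower (median of the 10 genes 0.96, of all genes -0.26). At 14 d 5 genes lay above all 3 d samples and 1 below, beside 15.5% and 35.9% of all genes. Scaling weighed on the 3 d comparisons: with factors from genes above a mean log2 CPM of 5, the median of all genes shifted by 0.52 at 3 d, 95.7% instead of 71.8% of the calls against control were higher, and *Plaur* fell under the fold threshold (-0.47) while *Mmp19* was called (1.13, q = 0.00439, alternatives 0.00435 to 0.24). The share of higher calls between 3 d and 14 d went from 25.8% to 4.28% with the same factors. Against control at 14 d that scaling moved the median by 0.06, and the same number of these genes, 7, was called.

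Several calls in monocytes passed narrowly and were lost when any of several libraries was left out, while the log2 changes stayed large (at 14 d 4.81 to 5.81 for *Mmp12*, 4.27 to 5.33 for *Mmp13* and 2.08 to 3.21 for *Plau*). *Mmp12* was no longer called without control replicate 1, 2 or 4 or 14 d replicate 3 or 4 (q 0.0515 to 0.0686). *Mmp13* was lost without control replicate 1, 3 or 4 (q 0.0563 to 0.0703). *Plau* was lost without control replicate 2, 3 or 4 or 14 d replicate 2, 3 or 4 (q 0.0512 to 0.102), and at 3 d without control replicate 2, 3 or 4 or 3 d replicate 3 or 4 (q 0.0517 to 0.0666). Without control replicate 4, 4 genes remained called at 14 d: *Mmp14*, *Mmp19*, *Timp1* and *Timp2*, which were called in all 12 fits with a sample left out.

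Other genes of the pathway were described from lists chosen by name, also with earlier results of these data known. List counts in monocytes at 14 d stand beside 3.22% of all genes called higher and 5.34% lower. Of 18 other MMP genes, 11 were tested in monocytes, and at 14 d *Mmp8*, the gene of neutrophil collagenase, was higher (565.7 against 195 CPM, change 1.54, SE 0.28, q = 0.0028) and *Mmp28* lower (0.672 against 1.64 CPM, -1.28, SE 0.37, q = 0.0419), a call lost in 11 of 12 fits with a sample left out. Of 20 tested regulators of MMPs and plasmin, 3 were called higher and 1 lower. Those named were *Furin*, a protease that activates MMP14 precursors (1.77, SE 0.31, q = 0.00194), *S100a10*, part of a plasminogen receptor (0.67, SE 0.16, q = 0.0143), and the integrin gene *Itgb2* (-0.64, SE 0.14, q = 0.0104). Of 18 ADAM and ADAMTS genes 2 were higher and 1 lower: *Adam8* (404.5 against 48.5 CPM, 3.06, SE 0.41, q = 0.000433), *Adam9* (0.90, SE 0.21, q = 0.0145) and the procollagen peptidase *Adamts14* (0.355 against 12.2 CPM, -5.09, SE 0.75, q = 0.000614). Of 12 matrix substrates 4 were higher and none lower, among them *Spp1*, which encodes osteopontin (9144 against 62.2 CPM), *Fn1*, which encodes fibronectin (5238 against 1991 CPM), and *Vcan*, which encodes versican (365 against 70.7 CPM). The median change at 14 d was 0.78 for the other MMPs, 0.07 for the regulators, 0.04 for the ADAM and ADAMTS genes and 0.80 for the substrates, beside 0.09 over all genes.

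Markers of other cells also changed in the monocyte samples, in both directions. At 3 d, where 36.8% of all genes were called higher and 14.4% lower, 3 of 7 neutrophil, 2 of 5 fibroblast and 2 of 5 endothelial markers were higher. Lower at 3 d were 4 of 7 alveolar macrophage, 3 of 4 T and NK cell and 2 of 5 dendritic cell markers, and type 2 epithelial markers were 1 higher and 2 lower of 5. Fibroblast markers summed to 13.7 to 15.5 CPM at 3 d, above the control range. At 14 d 3.22% of all genes were called higher and 5.34% lower. Of 6 interstitial macrophage markers 4 were higher and 1 lower at 14 d, the summed level going from 396 to 553 CPM in controls to 995 to 2218 CPM at 14 d, and *C1qa* went from 2.24 to 12.9 CPM to 118 to 322 CPM. Monocyte markers summed to 7588 to 10779 CPM in controls and 4994 to 7207 CPM at 14 d (1 of 6 higher, 2 lower). *Siglecf* lay at 2.13 to 5.03 CPM at 14 d, and the alveolar macrophage sum, most of it from *Chil3*, went from 7278 to 14972 to 15544 to 20829 CPM (1 of 7 higher, 1 lower). Neutrophil markers, 1 of 7 higher, summed to 1.41 to 31.3 CPM in controls, 11.5 to 67.1 CPM at 3 d and 18.5 to 223 CPM at 14 d. Fibroblast markers, none of 5 called, summed to 3.23 to 11.5 CPM in controls and 3.71 to 14.2 CPM at 14 d, and the eosinophil gene *Epx* was at 0 in all 14 d samples. T and NK cell markers (2 of 4 lower) went from 67.8 to 231 CPM to 5.48 to 8.43 CPM. Of 5 endothelial and of 5 type 2 epithelial markers, 2 each were lower at 14 d and none higher. Dendritic cell markers were 1 higher and 1 lower of 5. The part of these other cells in the changes of the protease genes was not tested.

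In alveolar macrophages none of the 10 genes was called at 3 d, where 1.27% of all 20944 genes tested were called, 1.05% higher and 0.224% lower. No gene of the 10 lay above or below control without overlap, beside 6.85% and 7.16% of all genes. At an unadjusted edgeR p below 0.05, 2 genes passed, *Mmp19* and *Timp3*, and DESeq2 called none of the 10 either. At 14 d 6 genes were called, *Mmp13*, *Mmp14*, *Timp2* and *Timp3* higher and *Plau* and *Plaur* lower, beside 62.3% of all genes called, 39.4% higher and 22.9% lower. That share of members is near the background. The median change of the 10 genes was 1.26, beside 0.18 over all genes, and 5 genes lay above control and 2 below without overlap, beside 40.2% and 30.6% of all genes.

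**Figure D3:**
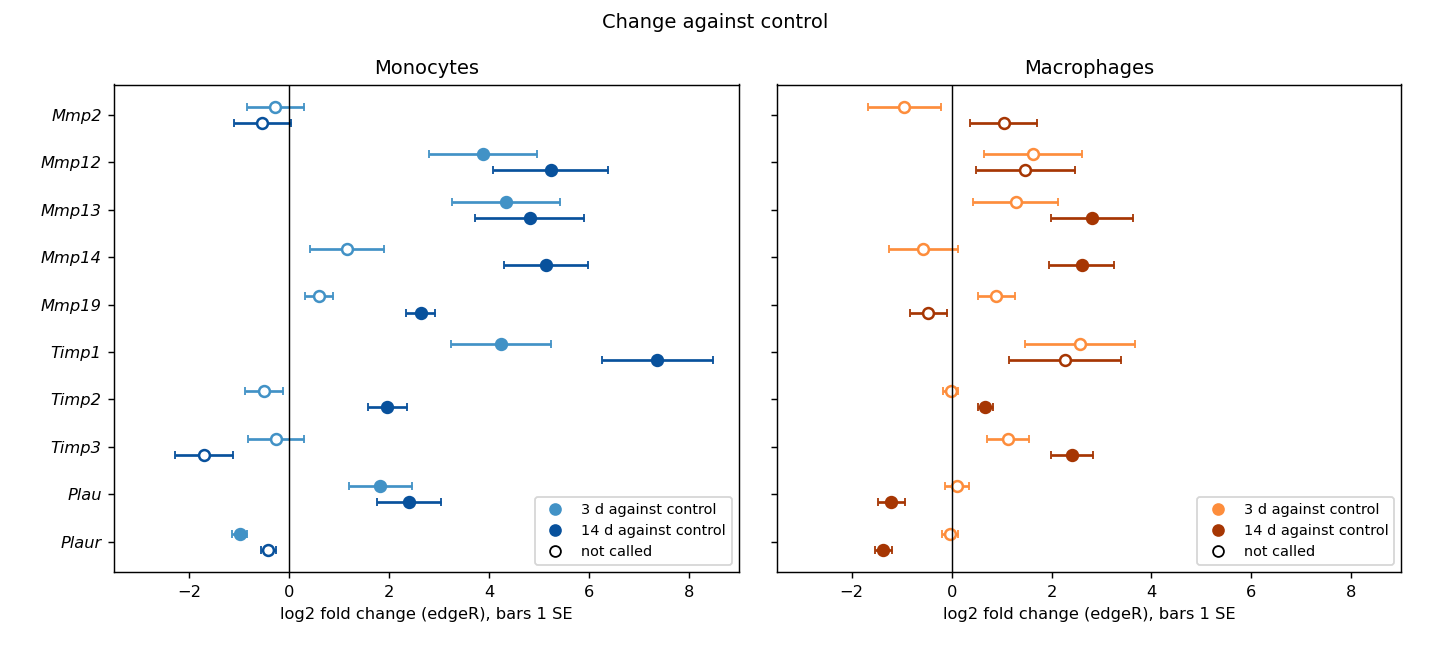
Log2 fold change of each gene (rows) against control at 3 d (light) and 14 d (dark) in monocytes (left) and macrophages (right), with bars of 1 SE from edgeR. Filled points were called. At 14 d *Timp1*, *Mmp12*, *Mmp14* and *Mmp13* lie between 4.81 and 7.37 in monocytes, and *Plau* and *Plaur* lie below 0 in macrophages, at -1.20 and -1.37.

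*Mmp12* and *Timp1* varied widely among the macrophage controls. *Mmp12* had 10.6, 111, 64.7 and 9.76 CPM in the 4 controls, 132, 86.8 and 235 CPM at 3 d and 75.9, 63.5 and 271 CPM at 14 d. The groups overlapped and neither time passed (1.63, SE 0.98, q = 0.517 at 3 d, and 1.48, SE 0.98, q = 0.215 at 14 d). *Timp1* had 1.57, 11.3, 0.524 and 1.93 CPM in controls, 19.99, 3.03 and 44.9 CPM at 3 d and 28.2, 14.2 and 12.2 CPM at 14 d. All its 14 d samples were above all controls, yet the change of 2.27 did not pass (SE 1.12, q = 0.106). It passed with DESeq2 (q = 0.0417, alternatives 0.0417 to 0.336) and without control replicate 2 (3.77, q = 0.0113).

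*Mmp14* in macrophages had 3.36, 23.3, 5.24 and 3.98 CPM in controls, 4.94, 6.52 and 6.57 CPM at 3 d and 63.5, 39.4 and 59.7 CPM at 14 d. Even with the high control replicate 2, all 14 d samples were above every other sample. It rose at 14 d by 2.60 against control (SE 0.65, q = 0.00673) and by 3.17 against 3 d (SE 0.75, q = 0.00646). Without control replicate 2 the change against control was 3.69. *Mmp13* had 0.274, 0.228, 0.131 and 0.664 CPM in controls, 0.573, 0.0776 and 1.88 CPM at 3 d and 4.32, 0.882 and 1.86 CPM at 14 d, a change of 2.81 at 14 d (SE 0.81, q = 0.00631) on 7 to 30 reads per 14 d sample. That call was lost without 14 d replicate 1 (1.98, q = 0.078).

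*Mmp19*, the most abundant of the 5 MMP genes in macrophages, had 185, 555, 210.3 and 294 CPM in controls, 779.6, 357 and 599.8 CPM at 3 d and 222, 209 and 246 CPM at 14 d. The 14 d samples lay within the control range (-0.46, SE 0.38, q = 0.296) and below all 3 d samples (-1.36, SE 0.41, q = 0.0147). The latter call was lost with 3 other scalings and without 14 d replicate 2 or 3 (q 0.0548 to 0.11). *Mmp2* had 0.332 to 2.58 CPM in controls, 0.104 to 0.860 CPM at 3 d and 1.39 to 3.89 CPM at 14 d, called at 14 d against 3 d (1.99, SE 0.77, q = 0.035) but not against control (1.04, SE 0.67, q = 0.177). Its call against 3 d was lost without 3 d replicate 2 or 3 or 14 d replicate 1 (q 0.0705 to 0.188), and against control it was called without control replicate 2 (q = 0.0246).

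*Timp2*, well expressed in macrophages, had 95.7, 135, 128 and 107 CPM in controls, 109, 111 and 123 CPM at 3 d and 187, 153 and 216 CPM at 14 d. The 14 d samples were above all others, but the change was small, 0.67 against control (SE 0.15, q = 0.00119) and 0.69 against 3 d (SE 0.16, q = 0.00243). The fold against control fell under the threshold without control replicate 4, any 3 d replicate or 14 d replicate 3 (0.49 to 0.57) and with no filter on low counts (0.47). *Timp3* had 0.822, 0.532, 0.786 and 1.59 CPM in controls, 1.93, 1.397 and 2.92 CPM at 3 d and 5.62, 5.17 and 4.23 CPM at 14 d. Its 14 d samples were above all others, by 2.40 against control (SE 0.42, q = 0.000169) and by 1.28 against 3 d (SE 0.44, q = 0.0189), the latter lost without 3 d replicate 1 or 2 or 14 d replicate 1 (q 0.0638 to 0.143).

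Both urokinase genes fell in macrophages at 14 d. *Plau* had 20.7, 27.5, 23.6 and 21.97 CPM in controls, 25.7, 17.8 and 32.4 CPM at 3 d and 14.8, 9.45 and 6.09 CPM at 14 d. *Plaur* had 430.1, 499, 431 and 566 CPM in controls, 466, 558 and 389 CPM at 3 d and 185, 219 and 157 CPM at 14 d. For both genes every 14 d sample lay below every other macrophage sample. The change against control was -1.20 for *Plau* (SE 0.26, q = 0.000962) and -1.37 for *Plaur* (SE 0.17, q = 1.18e-05), and both stayed called in all 10 fits with a sample left out. Against 3 d the changes were -1.31 for *Plau* (SE 0.28, q = 0.00117) and -1.33 for *Plaur* (SE 0.18, q = 5.96e-05).

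Between 3 d and 14 d in macrophages 7 of the 10 genes were called, *Mmp2*, *Mmp14*, *Timp2* and *Timp3* higher and *Mmp19*, *Plau* and *Plaur* lower, beside 56.4% of all genes, 36.3% higher and 20% lower. Of the 10, 4 lay above every 3 d sample and 3 below, beside 39% and 26.5% of all genes. Without 3 d replicate 2 the count was 4. With factors from genes above a mean log2 CPM of 5 the median of all genes at 14 d against control shifted by 0.57 and 89.4% instead of 63.3% of calls were higher. The called members kept their direction under that scaling, and *Mmp19* turned to 0.12.

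Among the listed pathway genes in macrophages at 14 d, 10 of 14 tested MMP genes were higher and 2 lower against control, and all list counts here stand beside 39.4% of all genes called higher and 22.9% lower. *Mmp9*, the gene of gelatinase B, had 0.548, 0.532, 2.75 and 0.199 CPM in controls and 112, 80.5 and 32.5 CPM at 14 d, a change of 6.18 (SE 0.74, q = 0.000149). Those lower were *Mmp8* (19.8 against 107 CPM, -2.43, SE 0.41, q = 0.000516), which was higher in monocytes at the same time, and *Mmp24* (-0.64, SE 0.20, q = 0.0106), whose call was lost in 5 of 9 alternatives (smallest change -0.09, q 0.000874 to 0.694) and without control replicate 3 or 14 d replicate 3. Of 20 regulators 12 were higher and 8 lower, among them *Anxa2*, a plasminogen receptor subunit (-0.86, SE 0.17, q = 0.000386), *Itgb2* (-0.91, SE 0.14, q = 8.24e-05) and *Lrp1*, which takes up protease and inhibitor complexes (-1.24, SE 0.19, q = 6.56e-05). Other scalings or the stricter filter ended the call of *Anxa2* in 4 of 9 alternatives (smallest change -0.29) and that of *Itgb2* in 3 of 9 (-0.35), while *Lrp1* was called in all 9. Of 17 ADAM and ADAMTS genes 10 were higher and 3 lower, with *Adam8* (4.56, SE 0.36, q = 1.58e-06) and *Adam19* (3.82, SE 0.23, q = 7.47e-08) higher and *Adamts2* lower (-0.98, SE 0.26, q = 0.00318), the last not called in 2 of 9 alternatives (smallest change -0.42). All 12 matrix substrates were called higher, including *Fn1* (0.80, SE 0.18, q = 0.00129), *Spp1* (2.03, SE 0.66, q = 0.0245) and the collagen gene *Col3a1* (3.88, SE 0.41, q = 3.62e-05). The call of *Spp1* was lost in 6 of 10 fits with a sample left out: control replicate 3 or 4, 3 d replicate 1 or any 14 d replicate (log2 change over all 10 fits 1.76 to 2.86). The medians were 2.72 for the other MMPs, 1.88 for the regulators, 2.48 for the ADAM and ADAMTS genes and 2.83 for the substrates, beside 0.18 over all genes.

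Markers of other cells were also higher in the 14 d macrophage samples, in which 39.4% of all genes were called higher and 22.9% lower. All 6 fibroblast markers were called higher, their sum going from 16.5 to 22.7 CPM in controls to 155 to 339 CPM, with *Col3a1* at 102 to 277 CPM and *Pdgfra* at 6.42 to 9.36 CPM. All 3 eosinophil markers were higher (0.266 to 1.14 against 24.8 to 103 CPM), as were 3 of 4 tested neutrophil markers (1.10 to 3.28 against 59.6 to 140.3 CPM), 4 of 5 endothelial markers (8.67 to 18.2 against 35.3 to 47.5 CPM), 3 of 6 monocyte markers, *Itgam* included in the list (30.7 to 57.7 against 146 to 271 CPM) and 3 of 5 dendritic cell markers (5.40 to 16.7 against 16.4 to 38.0 CPM). Of 7 alveolar macrophage markers 4 were lower and none higher, and *Siglecf* went from 231 to 348 CPM to 90.1 to 127 CPM. *Ly6c2* lay at 1.18 to 6.19 CPM at 14 d, overlapping with its control range. Epithelial type 2 markers summed to 108 to 161 CPM in controls and 133 to 137 CPM at 14 d (2 of 6 higher, 2 lower), 1 of 3 tested T and NK cell markers was higher (3.63 to 12.2 against 10.8 to 13.2 CPM), and interstitial macrophage markers were 4 higher and 2 lower of 6, with summed levels of 1539 to 1930 against 916 to 1046 CPM. The part of these cells in the values of *Mmp2*, *Mmp14*, *Timp3* and the others was not tested.

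The cell types were compared with 1 scaling over all 22 samples. In controls 6 of the 10 genes were called, *Mmp12*, *Mmp19*, *Timp2* and *Plau* higher in macrophages and *Timp3* and *Plaur* lower, beside 44.3% of 26623 genes, 24.6% higher and 19.7% lower. *Plau* differed most, at 20.4 ± 2.30 CPM in macrophages and 0.864 ± 0.740 CPM in monocytes (SD, n = 4 each), a difference of 4.53 (SE 0.55, q = 3.56e-07). *Mmp19* was 3.31 higher (SE 0.35, q = 7.52e-08) and *Timp2* 2.92 higher (SE 0.33, q = 1.01e-07), while *Plaur* differed by -1.34 (SE 0.16, q = 8.97e-08). For these 4 genes, and for *Timp3*, the groups did not overlap, 3 lying above and 2 below, beside 24.2% and 19.5% of all genes. *Mmp12* (2.88, SE 1.08, q = 0.0363) was lost without control monocyte replicate 1, 2 or 4 or control macrophage replicate 2 or 3 (q 0.0689 to 0.123), and *Timp3* (-1.31, SE 0.51, q = 0.0377) in 9 of 22 fits with a sample left out (q 0.0603 to 0.111). Library size alone, with no further factor, gave 71.1% instead of 55.5% of calls higher in macrophages, 5 members then being called.

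At 14 d 5 of the 10 genes were called between the cell types, *Timp2* and *Timp3* higher in macrophages and *Mmp13*, *Timp1* and *Plaur* lower, beside 63.7% of all genes, 40.3% higher and 23.4% lower. In these 14 d samples 2 genes lay above and 3 below without overlap, beside 39.6% and 24.3% of all genes. The median of all genes was 0.97 here, which itself moved to 2.04 with library size alone and to 0.06 among genes above a mean log2 CPM of 1, so these differences depend on where the scale is centred. *Timp1* was at 12.99 ± 6.30 CPM in macrophages (SD, n = 3) and 140.2 ± 44.4 CPM in monocytes (SD, n = 4), a difference of -3.43 (SE 1.14, q = 0.0146), and *Plaur* at 133 ± 17.8 and 818 ± 165 CPM, a difference of -2.62 (SE 0.19, q = 1.18e-11). *Timp3* was 2.45 higher in macrophages (SE 0.55, q = 0.000482) and *Timp2* 1.30 higher (SE 0.33, q = 0.00161). *Mmp19*, higher in macrophages in controls, no longer differed by a called amount (-0.10, SE 0.35, q = 0.813), and its sign turned under other scalings. *Plau* (0.60, SE 0.51, q = 0.302) was not called either. Without 14 d macrophage replicate 2 or replicate 3 the count was 3, *Timp1* (q = 0.0535 and 0.0517) and *Mmp13* (q = 0.0919 and 0.0699) being lost, and *Mmp13* was also lost without 14 d monocyte replicate 4 (q = 0.0915). With library size alone 87.6% instead of 63.3% of calls were higher in macrophages, and 6 members were called, 5 of them higher.

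Whether the change against control differed between the cell types was tested as an interaction over all 22 samples. At 14 d 8 of the 10 genes were called, beside 36.9% of all genes. For *Timp3* the log2 change in macrophages was above that in monocytes, by 3.76 (SE 0.75, q = 0.000522), beside 16.9% of all genes called in that direction. In the fits within a cell type *Timp3* was higher in macrophages (2.40) and lower, without being called, in monocytes (-1.71). Its 14 d counts were only 25 to 41 reads in macrophages and 1 to 20 in monocytes, and the overlap with *Syn3* applies here too. For *Mmp12*, *Mmp14*, *Mmp19*, *Timp1*, *Timp2*, *Plau* and *Plaur* the log2 change in macrophages was below that in monocytes, beside 20% of all genes. For *Plaur* this was a larger fall in macrophages. The fits within a cell type, which use other scaling factors, gave -1.37 in macrophages and -0.42, not called, in monocytes. The largest difference was -5.40 for *Timp1* (SE 1.59, q = 0.0152), followed by -4.05 for *Mmp12* and -3.93 for *Plau* (SE 0.74, q = 0.000427). For *Mmp19* it was -3.41 (SE 0.49, q = 3.95e-05). *Plau* rose in monocytes and fell in macrophages, so its groups moved in opposite directions. For *Timp2* the difference was -1.62 (SE 0.45, q = 0.00881) and for *Plaur* -1.29 (SE 0.23, q = 0.000191). The call of *Timp2* was lost in 4 of 8 alternatives (smallest difference -0.71, q 0.00237 to 0.199) and that of *Plaur* in 2 of 8 (smallest -0.42, q 0.00017 to 0.111). *Mmp12* (-4.05, SE 1.54, q = 0.0492) and *Mmp14* (-2.84, SE 1.08, q = 0.0476) passed narrowly.

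**Figure D4:**
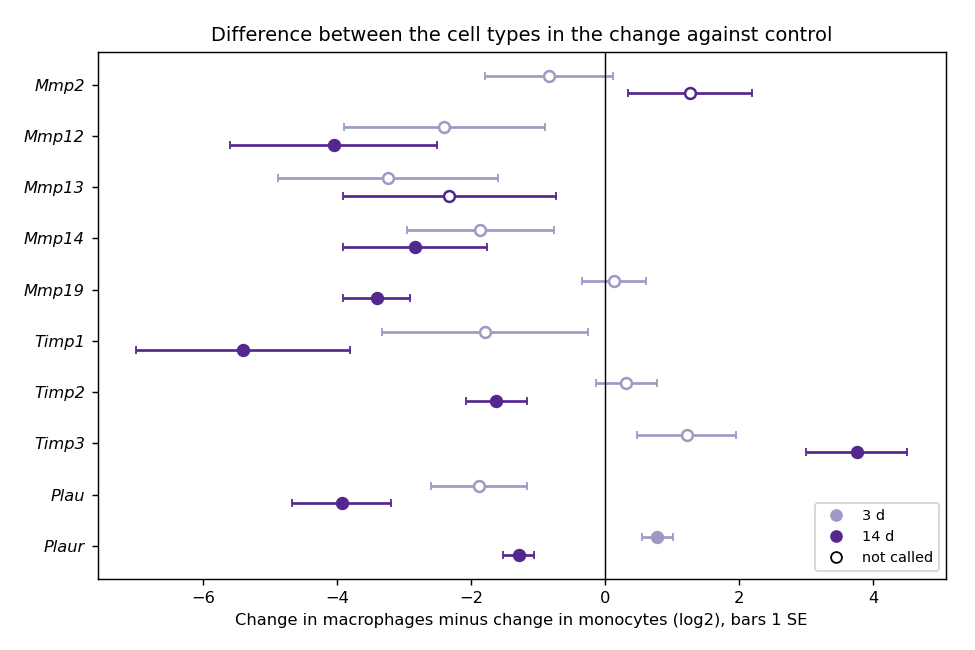
Difference between the cell types in the change against control, macrophages minus monocytes on a log2 scale, for each gene (rows) at 3 d (light) and 14 d (dark), with bars of 1 SE from the edgeR interaction. Filled points were called. At 14 d *Timp3* lies at 3.76 and 7 genes lie between -5.40 and -1.29, while at 3 d only *Plaur* is filled, at 0.78.

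The median interaction over all genes at 14 d was 0.48, and it moved to 1.33 with factors from genes above a mean log2 CPM of 5, where 88.6% instead of 45.9% of calls were higher in macrophages. Under that scaling and with upper quartile factors 4 of the 10 genes were called, with library size alone 5, and among genes above a mean log2 CPM of 1 also 4. *Mmp19* and *Plau* were called in all 8 alternatives, *Timp1* too (q 0.00291 to 0.0353), and *Timp3*, on few reads, in the 7 where it was tested. *Mmp14* was lost in 7 of 8 alternatives (q 0.0476 to 0.156) and in 17 of 22 fits with a sample left out, and *Mmp12* in 5 of 8 (q 0.0264 to 0.123) and in 14 of 22. *Timp1* was lost without control macrophage replicate 2 (q = 0.0537), where the count was 5. At 3 d the interaction was called for *Plaur*, which was called lower in monocytes and not called in macrophages (0.78, SE 0.23, q = 0.0219), beside 18.7% of all genes, 3.51% higher and 15.2% lower. That call was lost without control macrophage replicate 1 (q = 0.0509) or 3 d macrophage replicate 2 (q = 0.0607), and over the alternatives q ran from 0.0033 to 0.11.

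The genes with the most similar pattern were looked up among well-expressed genes (mean log2 CPM above 3) by Pearson's r of log2 CPM within a cell type. Over the 12 monocyte samples, which share libraries and separate by group, *Mmp12* was closest to *Vdr* (r = 0.99), *Socs2* and *Rab3il1*, and *Mmp13* to *Tnip3* (r = 0.97), *Plekhf1* and *Ccl24*. *Timp1* was closest to *Sphk1* (r = 0.99), *Dmkn* and *Rab3il1*, *Mmp14* to *Slc7a2* (r = 0.97), *Il7r* and *Pdpn*, *Mmp19* to *Myo1e* (r = 0.99), *Il1rn* and *Slc39a14*, *Timp2* to *Ptov1* (r = 0.98), *Wsb2* and *AU020206*, and *Plau* to *Angptl2* (r = 0.91), *Tnip3* and *Ccl2*. Over the 10 macrophage samples *Mmp14* was closest to *Prg2* (r = 0.95), 1 of the eosinophil markers, followed by *Zfhx3* and *Ptgs1*, and *Mmp13* again had *Ccl24* first (r = 0.92). *Timp2* was closest to *Mid1ip1* (r = 0.97), *Timp3* to *Rtel1* (r = 0.95), *Plau* to *Ifi35* (r = 0.99) and *Plaur* to *Gm13571* and *Mapk1ip1l* (r = 0.99 for both). Among the members themselves the highest r in monocytes was 0.95, for *Mmp14* with *Mmp19*, *Mmp12* with *Timp1* and *Mmp19* with *Timp1*. *Mmp12* and *Mmp13* had r = 0.93 in monocytes and r = 0.32 in macrophages, where *Mmp13* had only 1 to 30 reads per sample. *Plau* and *Plaur* had r = -0.46 in monocytes and r = 0.81 in macrophages.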

How the data were processed

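RNA of sorted lung cells was isolated with RNeasy columns, and oligo(dT)-enriched NEBNext Ultra libraries were sequenced as paired ends on a HiSeq. The study's methods name 1 lane, but its results describe sequencing of the monocytes only. Whether the macrophage libraries were in that lane is not stated by the study. The values the authors deposited are raw counts, in 2 tables, 1 per cell type, with 31134 macrophage and 55421 monocyte genes. The submitters' processing notes name STAR 2.7.2c and 2.7.3a, featureCounts 1.6.3, DESeq2 1.26.0 and 1.28.1 and the mouse build GRCm38 (mm10), without saying which served which table, and the strand setting is not given in the sources used here. No deposited column was left unused.

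From these counts, genes were filtered with filterByExpr, scaled by TMM and tested with edgeR 4.0.16 (quasi-likelihood, robust) in R 4.3.3, in 1 fit per cell type over its 3 groups, and over all 22 samples for the 31116 shared genes in comparisons between cell types. p-values were adjusted by Benjamini-Hochberg over all genes tested, giving q, and calls needed q below 0.05 and a fold change above 1.5, as in the study. The 10 genes and all gene lists were chosen with earlier results of these data known. From each pathway list up to 3 genes called at 14 d against control were named, those with the highest mean CPM, and for each member called there the 3 other genes with the highest Pearson r. Exonic lengths and positions are from GENCODE vM21 on GRCm38, and promoters from RefSeq on GRCm38.p6. Depth sets the precision. Per library total, before TMM scaling, 3 counts were 0.104 to 0.194 CPM in monocytes and up to 0.651 CPM in macrophages. This limit covers counting error only. No 2 samples were alike within sampling noise (lowest chi-square per gene 9.79).

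Alternatives were DESeq2 1.42.0, library size only, upper quartile factors, TMM factors from genes above a mean log2 CPM of 5, no filter on low counts, genes above a mean log2 CPM of 1, q alone, only the groups compared, the replicate number as a block, and each sample left out. In control monocytes against control macrophages all 4 same-numbered pairs deviated together (r = 0.14 to 0.24). The 14 d monocytes and control macrophages, which differ in Y-linked counts, did so too (r = 0.10 to 0.19). Such correlations therefore cannot show that same-numbered samples share a mouse, and the labels do not say so. The fit was tested on simulated counts with 200 changed genes. At 14 d 83% of 4-fold and 17% of 2-fold changes were recovered in monocytes and 87% and 61% in macrophages. For the difference between cell types 65% and 14% were recovered. The changed genes had a mean log2 CPM above 1 and rose as often as they fell. These rates therefore do not cover lower genes or a broad shift of many genes in 1 direction.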

Additional observations from a re-analysis of the deposited data

Results flagged for a closer look

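In 3 of the 40 gene and group combinations of 4 samples, 1 sample lay far from the other 3, measured as its gap to the nearest sample over the range of the group. The cutoff used gives about 1 in 20 by chance for normally distributed values, which CPM, above all on few reads, need not be. Control macrophage replicate 2 was high for *Mmp14* (23.3 CPM, gap 0.906 of the range) and for *Timp1* (11.3 CPM, gap 0.87 of the range). Control monocyte replicate 1 was high for *Plau* (1.78 CPM, gap 0.92 of the range).

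The change against control differed between macrophages and monocytes by the edgeR interaction for 8 genes at 14 d: *Mmp12* (-4.05), *Mmp14* (-2.84), *Mmp19* (-3.41), *Timp1* (-5.40), *Timp2* (-1.62), *Timp3* (3.76), *Plau* (-3.93) and *Plaur* (-1.29), as log2 differences, macrophages minus monocytes. At 3 d it differed for *Plaur* (0.78). Cell type and the separate processing of the 2 tables cannot be told apart in the level of a gene.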

How the results depend on the processing

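Over the 10 genes and all comparisons, 735 values kept direction and side of the threshold under the alternatives other than leaving out a sample, 43 lost a call, 23 gained one and 38 changed sign. With a sample left out the counts were 1404, 90, 23 and 23. Nothing called in the main comparisons changed sign under any alternative. The cause of these changes was not tested.

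The number of the 10 genes called for the difference between cell types at 14 d went from 8 to 5 with library size only and to 4 with upper quartile factors, with TMM factors from genes above a mean log2 CPM of 5 and among genes above a mean log2 CPM of 1, where fewer genes were tested. At 3 d it went from 1 to 2 with DESeq2 and to 0 among genes above a mean log2 CPM of 1. With a sample left out the count ran from 4 to 7 in monocytes at 14 d, from 0 to 1 in macrophages at 3 d, from 4 to 7 in macrophages from 3 d to 14 d, from 3 to 6 between cell types at 14 d, from 0 to 2 for the difference at 3 d and from 5 to 8 for that at 14 d.

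With the replicate block, 6 of the 10 genes were called in monocytes at 14 d, 5 from 3 d to 14 d, 6 in macrophages from 3 d to 14 d, 4 between cell types at 14 d and 7 for the difference at 14 d. In monocytes at 3 d the count stayed at 5, *Mmp14* being gained (1.25, q = 0.0069, alternatives 0.0069 to 0.371) and *Plau* lost (q = 0.0521, alternatives 0.00613 to 0.0521). *Plau* was also lost at 14 d (q = 0.0677, alternatives 0.00352 to 0.0677), and *Mmp12* was gained from 3 d to 14 d (1.91, q = 0.0386, alternatives 0.0386 to 0.52). In macrophages *Mmp19* was lost from 3 d to 14 d (q = 0.0731, alternatives 0.00145 to 0.11) and the substrate gene *Spp1* at 14 d (q = 0.128, alternatives 0.0046 to 0.128). The deposited macrophage column names skip numbers among the 3 d and 14 d samples, so their replicate numbers need not match those of other groups. In fits with these groups the block tests no known pairing. Between control macrophages and control monocytes the block gave 6 calls, as without it. In each other comparison run, at least 1 same-numbered pair had a correlation under 0.1, the closest being control and 14 d monocytes (0.09 to 0.52). The 14 d monocytes and control macrophages, which were not compared, had 0.10 to 0.19.

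Log2 values that changed sign were as follows. In macrophages at 3 d *Timp2* was 0.0263 with DESeq2, 0.0335 with upper quartile factors, 0.0602 with high-gene TMM factors, 0.0017 without a filter, 0.0338 among higher genes and 0.0127 with only the groups compared, and *Plaur* was 0.0109, 0.0211, 0.0442, 0.0197 among higher genes, 0.0418 with the block and 0.00105 with only the groups compared. In macrophages from 3 d to 14 d *Mmp12* was 0.0179 with DESeq2, 0.32 with library size, 0.18 with upper quartile factors, 0.40 with high-gene TMM factors and 0.18 among higher genes, and *Timp1* was 0.15 with library size and 0.17 with high-gene TMM factors. *Mmp19* between cell types at 14 d was 0.29, 1.01, 0.26, 0.95, 0.0906 without a filter and 0.44 among higher genes, and its difference at 3 d was -0.19 with library size, -0.18 with high-gene TMM factors and -0.0524 among higher genes. In macrophages at 14 d *Mmp19* was 0.12 with high-gene TMM factors. In monocytes at 3 d, with library size, upper quartile and high-gene TMM factors, *Timp3* was 0.22, 0.16 and 0.26 and *Mmp2* 0.20, 0.11 and 0.23, while *Timp2* was 0.0071 with the last. For 14 d against 3 d *Mmp13* was -0.0440 with upper quartile and -0.0384 with high-gene TMM factors.

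With a sample left out, the ranges that crossed 0 were -1.24 to 0.0637 for *Mmp2* and -0.0636 to 0.96 for *Mmp13* in monocytes from 3 d to 14 d. In macrophages at 3 d they were -0.85 to 0.51 for *Mmp14*, -0.10 to 0.0594 for *Timp2*, -0.0800 to 0.35 for *Plau* and -0.13 to 0.11 for *Plaur*. From 3 d to 14 d in macrophages they were -1.04 to 0.48 for *Timp1* and -1.17 to 0.17 for *Mmp12*, and for *Mmp19* -0.24 to 0.20 between cell types at 14 d and -0.0926 to 0.54 for the difference at 3 d.

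Over all genes the main count of 11438 in monocytes at 3 d was 19592 without a filter and 2328 among higher genes, that of 10395 from 3 d to 14 d was 16664 and 2346, and that of 267 in macrophages at 3 d was 727 with DESeq2, 133 with the block and 77 to 1476 with a sample left out. Among higher genes it was 5752 of 13051 in macrophages at 14 d, 5032 of 11806 from 3 d to 14 d, 8815 of 16958 between cell types at 14 d, and 1797 of 4983 and 4688 of 9822 for the differences at 3 d and 14 d. Without 14 d monocyte replicate 3 the count of 1914 was 1158.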
